A study of Mus musculus with 15 samples.

Results

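The 7 sarcomeric myosin heavy chains Myh3, Myh8, Myh1, Myh2, Myh4, Myh13 and Myh7 and the 3 myogenic factors Myog, Myod1 and Myf6 were followed in RNA of mouse eyes taken with their eyelids. These 10 genes were chosen by name, as the heavy chains of skeletal muscle fibres and the transcription factors of muscle differentiation. All 10 were among the 20418 gene symbols of the deposited tables, each with a single transcript, and all 10 passed the filter on low counts in every comparison.

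Myosin heavy chains are the motor proteins of the thick filament, and the isoform a fibre makes sets how fast it contracts. In rodents, developing fibres make embryonic (Myh3) and perinatal (Myh8) heavy chain, which give way after birth to the fast chains of types IIa (Myh2), IIx (Myh1) and IIb (Myh4), while Myh7 is the slow chain, shared with the heart, and Myh13 is a chain of the extraocular muscles. Myod1 commits cells to the muscle lineage, Myog drives the differentiation of myoblasts into fibres, and Myf6 (Mrf4) is the member of the family that differentiated fibres keep making. Eyelids hold the orbicularis oculi, the muscle that closes them, and an enucleated eye can keep stumps of the extraocular muscles.

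All mice were BALB/c, and the Egr1-/- line had been brought from C57BL/6 by 5 backcrosses in a first round and 4 in a second. Of 15 libraries, 3 came from adults (1 from wild type and 2 from Egr1-/-) and 4 from newborns (2 per genotype), and the other 8 were single eyes of 4 mice that were 3 days old. In the Egr1-/- mice E24 and E29 the lids were open over one eye and closed over the other, in the Egr1-/- mouse E32 open over both, and in the Egr1+/- mouse E28 closed over both. Eyes of a mouse are named OD and OS as in the labels. The labels do not say how many animals a newborn or adult library holds, so p-values there measure only the spread between libraries, which may be technical. Reads of Egr1 itself went against the genotype labels: 33.0 CPM (reads scaled to a common library total) in the adult wild type and 46.1 and 60.7 in the newborn wild types, against 157 to 367 in the 10 libraries labelled Egr1-/- and 99.3 and 110.3 in the Egr1+/- eyes. Which stretch of Egr1 the allele disrupts is not given in the sources used here, and the groups are therefore called labelled knockouts.

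The upstream sequences of 6 members are shown. Myh3, Myh8, Myh1, Myh4 and Myog changed with age, Myh1 and Myh4 in the opposite direction to the others, and Myh2, which did not pass that test, shares a stretch with Myh1 and Myh4. They are RefSeq sequences of the build GRCm38.p6, read on the plus strand and ending at the base before the annotated start; the deposited tables use the older build mm8 and give no positions for these genes beyond the chromosome. On chromosome 11 stand, in this order, Myh3 (chr11:67078050-67078299), Myh2 (chr11:67170777-67171026), Myh1 (chr11:67199852-67200101), Myh4 (chr11:67237562-67237811) and Myh8 (chr11:67276874-67277123), and Myog is on chromosome 1 (chr1:134289754-134290003). In Myh3 and Myog, capitals mark matches to the E-box CANNTG, the motif that myogenic factors bind. In Myh2, Myh1, Myh4 and Myh8, capitals mark 2 stretches that the genes share letter for letter.
Myh3: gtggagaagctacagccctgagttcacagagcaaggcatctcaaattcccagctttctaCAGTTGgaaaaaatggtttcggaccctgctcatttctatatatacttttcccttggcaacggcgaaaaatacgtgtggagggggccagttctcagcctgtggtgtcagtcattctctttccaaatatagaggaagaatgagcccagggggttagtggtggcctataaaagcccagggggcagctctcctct
Myog: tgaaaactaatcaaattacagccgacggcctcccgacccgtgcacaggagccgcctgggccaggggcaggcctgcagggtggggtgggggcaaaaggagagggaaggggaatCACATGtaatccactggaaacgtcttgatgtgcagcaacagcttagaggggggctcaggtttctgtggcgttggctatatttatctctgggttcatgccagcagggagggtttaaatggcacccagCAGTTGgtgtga
Myh2: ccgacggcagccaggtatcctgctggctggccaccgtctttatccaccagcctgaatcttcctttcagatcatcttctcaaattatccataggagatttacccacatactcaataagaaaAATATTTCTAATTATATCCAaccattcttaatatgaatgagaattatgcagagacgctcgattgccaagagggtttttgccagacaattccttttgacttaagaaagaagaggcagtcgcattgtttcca
Myh1: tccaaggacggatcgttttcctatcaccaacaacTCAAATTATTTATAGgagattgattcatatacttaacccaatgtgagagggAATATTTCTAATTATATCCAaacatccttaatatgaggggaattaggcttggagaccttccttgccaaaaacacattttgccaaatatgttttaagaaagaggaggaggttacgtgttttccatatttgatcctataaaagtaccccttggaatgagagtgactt
Myh4: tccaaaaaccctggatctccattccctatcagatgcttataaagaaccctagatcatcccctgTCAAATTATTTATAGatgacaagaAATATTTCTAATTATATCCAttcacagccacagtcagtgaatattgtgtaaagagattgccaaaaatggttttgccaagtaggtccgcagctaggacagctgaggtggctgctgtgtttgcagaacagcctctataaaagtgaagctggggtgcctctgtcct
Myh8: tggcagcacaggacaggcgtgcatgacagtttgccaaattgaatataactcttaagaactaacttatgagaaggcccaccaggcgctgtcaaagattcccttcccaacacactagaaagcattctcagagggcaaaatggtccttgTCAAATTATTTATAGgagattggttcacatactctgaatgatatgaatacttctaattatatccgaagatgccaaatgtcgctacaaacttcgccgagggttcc

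The adult fast chains Myh1, Myh2 and Myh4 share the 20 bases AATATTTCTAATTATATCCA, which begin at base -165 of Myh1, -130 of Myh2 and -163 of Myh4, counted from the start site. Of 32851 RefSeq promoter windows of 300 bases (250 before and 50 after the start), these 3 were the only ones that held this exact stretch on either strand. The 20 bases are the longest run that Myh1 and Myh4 share, so a search for them favours these genes. The perinatal chain Myh8 holds part of the stretch, with 14 bases in a row shared with Myh2. The 15 bases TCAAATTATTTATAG were held by Myh1 (-216), Myh4 (-187) and the perinatal chain Myh8 (-104) and by no other window. A match to the MEF2 consensus lies inside that stretch and overlaps a match to TATAAA in each of these 3 windows, and MEF2 matches were present in 3.19% of all windows. The E-box CANNTG was in 7 of the 9 windows of 8 members (Myh7 has 2 windows), beside 72.3% of all windows, and TATAAA in 5 of 9 beside 13.6%. The Egr1-type motifs GCGTGGGCG and GCGGGGGCG, searched on both strands, were in none of the 9 windows, beside 0.612% and 2.91% of all windows. Such matches describe letters and not binding. Only exact copies of the 20-base and 15-base stretches were searched, and the Myh2 sequence above holds a near copy of the 15-base one. Neither stretch can therefore be called particular to the genes that hold it in full.

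Libraries held 20334849 to 43907093 reads in transcripts, and counts of a member ranged from 10 reads (Myod1 in an adult library) to 27484 (Myh8 in a day 3 eye). Levels below are RPKM, CPM divided by the kilobases of exon of a transcript, on library totals adjusted by TMM, a scaling that holds most genes level between libraries. They can be set against each other between genes. The defining fibre genes were present in all libraries: the summed RPKM of a list of 12 skeletal fibre markers (actin, troponins, titin and others) was 1015 to 5202. The summed RPKM of 7 cardiac markers was 6.09 to 44.8, with 1 of these genes at 0 in the eye E32 OD. Single heavy chains are less certain than their total, since 4.81% (Myh3) to 27.4% (Myh1) of their 50-base stretches recur in another heavy chain, and the read length and the treatment of multiply mapped reads are not given in the sources used here. The factors share no such stretch with a heavy chain. The libraries do not keep strand, so reads of the antisense RNAs Myhas at Myh1 and Mhrt at Myh7 could be counted with their partners. Several libraries stood apart. Newborn labelled knockout replicate 1 had a summed lens marker RPKM of 238 against 35137 to 38834 in the other newborn libraries. Adult labelled knockout replicate 1 had a cornea sum of 425 against 3991 and 6178 in the other adults, and a lens sum of 4160 against 25269 and 19735. Adult labelled knockout replicate 2 had a fibre marker sum of 1015 against 3122 and 2847. The eye E32 OS had a rod marker sum of 7.64 against 57.3 to 201 in the other eyes of day 3. The reads of newborn wild type replicate 1 came to 75.6% of the total the authors had used for it.

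The perinatal chain Myh8 was the most abundant heavy chain at birth and at day 3 and nearly absent in adults. Its RPKM was 32.3 and 35.9 in the newborn wild types, 131 and 152 in the newborn labelled knockouts, and 25.9 to 156 (median 90.6) in the 8 eyes of day 3. In adults it was 1.17 in the wild type and 2.11 and 0.594 in the labelled knockouts, below every younger library. The embryonic chain Myh3 followed at 10.2 and 12.1 in newborn wild types, 37.4 and 67.3 in newborn labelled knockouts and 15.9 to 51.1 (median 35.9) at day 3. Adult values of Myh3 were 6.94, 11.5 and 3.35, so that the highest adult library lay above the lowest newborn one but under every eye of day 3.

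The IIb chain Myh4 had the opposite course. It stood at 3.15 and 3.20 RPKM in newborn wild types, 11.2 and 13.1 in newborn labelled knockouts and 1.87 to 13.6 (median 6.73) at day 3, and at 100.5 in the adult wild type and 82.5 and 25.2 in the adult labelled knockouts. No adult library overlapped a younger one. The extraocular chain Myh13 was lower throughout but moved alike, with 0.589 and 0.419 in newborn wild types, 1.83 and 2.78 in newborn labelled knockouts, 0.494 to 3.02 (median 1.68) at day 3, and 9.82, 13.0 and 3.22 in adults. Myh1, the IIx chain, ran from 1.96 to 9.95 (median 6.85) at day 3. Its newborn values were 5.32 and 5.16 in wild types and 13.0 and 11.8 in labelled knockouts, and its adult values of 20.2, 31.6 and 9.23 overlapped with them.

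The IIa chain Myh2 overlapped between all ages, at 4.75 to 20.4 RPKM in newborn libraries, 5.91 to 22.0 at day 3 and 3.10 to 12.2 in adults. These ranges pool the genotypes. Wild types had 4.75 and 5.05 at birth and 7.15 in the adult. Labelled knockouts had 16.3 and 20.4 at birth and 12.2 and 3.10 in adults. The slow chain Myh7 was the lowest heavy chain in all 3 adult libraries, at 0.584, 0.749 and 0.138 RPKM, and its levels at birth (1.12 to 4.92) and at day 3 (2.65 to 7.38) lay above all of these. Its reads cannot be assigned to slow fibres alone, since 22.6% of its 50-base stretches recur in the cardiac chain Myh6.

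**Figure D1:**
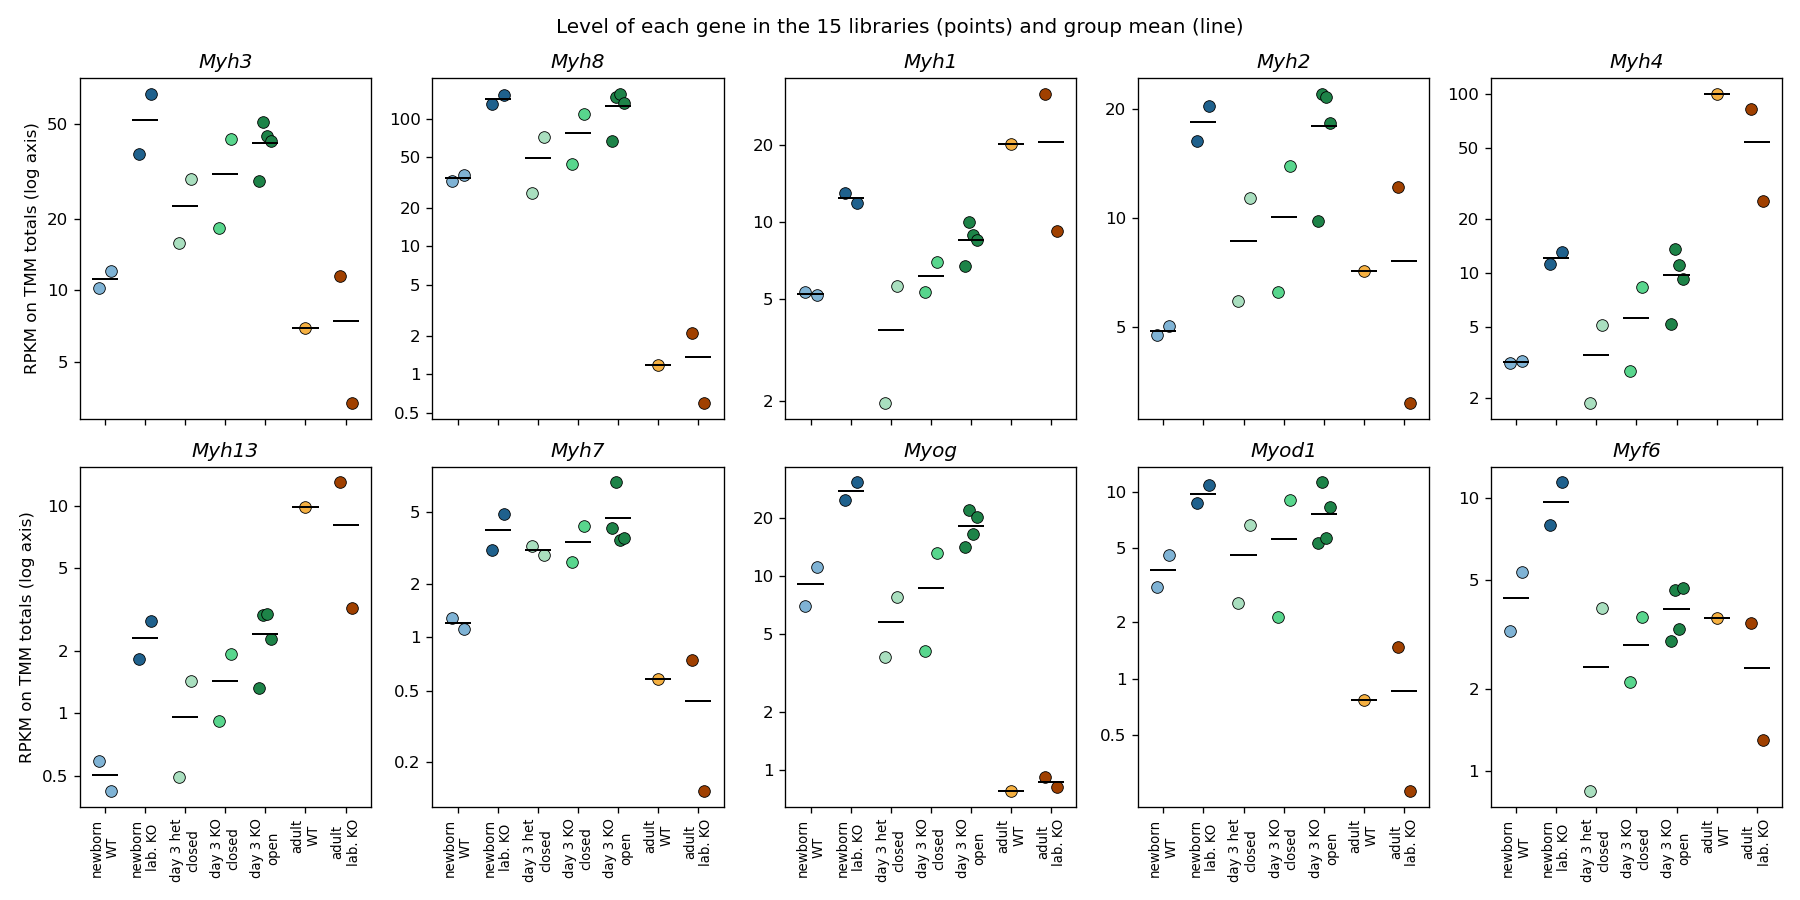
RPKM on TMM totals (vertical axis, logarithmic) of the 10 genes in each of the 15 libraries (points), by group (horizontal axis), with the group mean as a line. Myh8 and Myog lie lowest in the adult libraries and Myh4 and Myh13 highest, and for all 10 genes the 2 newborn labelled knockouts lie above the 2 newborn wild types.

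Among the factors, Myog showed the widest step between young and adult eyes. Its RPKM was 7.03 and 11.1 in newborn wild types, 24.7 and 30.5 in newborn labelled knockouts, 3.84 to 21.9 (median 13.6) at day 3, and 0.775, 0.922 and 0.813 in adults, where it rested on 25 to 31 reads. Myod1 was at 3.08 and 4.57 in newborn wild types, 8.68 and 10.8 in newborn labelled knockouts, 2.13 to 11.3 (median 6.15) at day 3, and 0.767, 1.47 and 0.249 in adults. Both factors were lower in each adult library than in any younger one. How many of all genes part by age without overlap was not counted, here or for Myh8, Myh4, Myh13 and Myh7 above. Such a parting cannot therefore be called particular to these genes. Myf6 overlapped between all ages, with 3.28 and 5.38 in newborn wild types, 7.96 and 11.5 in newborn labelled knockouts, 0.843 to 4.71 (median 3.50) at day 3 and 3.64, 3.49 and 1.30 in adults. Per length, Myf6 was the highest of the 3 factors in all 3 adult libraries and Myog the highest in all newborn and day 3 libraries.

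As a composition, which does not depend on how much muscle a library holds, the heavy chains showed a young and an adult pattern. Myh8 made up 55.8% to 61.2% of the summed RPKM of the 7 chains in newborn libraries and 46.9% to 62.7% at day 3, against 0.801% to 1.38% in adults. Myh4 made up 4.80% to 5.47% in newborn libraries, 3.38% to 5.36% at day 3 and 53.7% to 68.7% in adults. The ratio of the developmental chains (Myh3 and Myh8) to the adult fast chains (Myh1, Myh2 and Myh4) was 3.22 to 4.84 in newborn libraries, 4.30 to 5.24 at day 3 and 0.0634 to 0.107 in adults, on RPKM. The shares describe each library and were not tested.

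**Figure D2:**
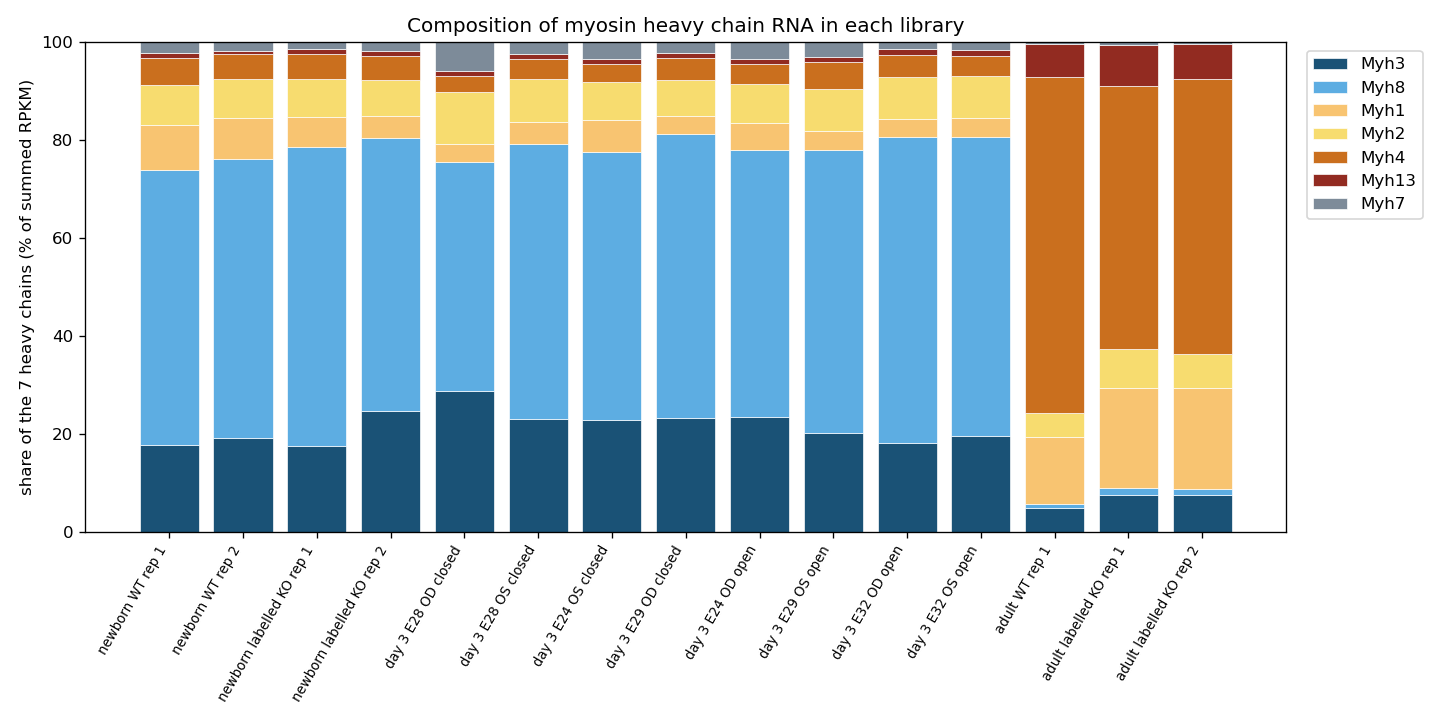
Share of each of the 7 heavy chains (vertical axis, % of their summed RPKM) in each library (horizontal axis, 1 bar per library, 15 in all). Myh3 and Myh8 together fill 73.8% to 80.5% of the newborn bars and 5.54% to 8.84% of the adult bars, where Myh4 fills 53.7% to 68.7%.

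Adult labelled knockout replicate 2 had less muscle RNA in all but kept this pattern. The 7 chains summed to 44.8 RPKM there, against 154 in adult labelled knockout replicate 1 and 146 in the adult wild type. Its Myh4 share was 56.2%, beside 53.7% in the other labelled knockout and 68.7% in the wild type. Bulk RNA does not tell fewer muscle cells from less muscle RNA per cell, here or in any level below.

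Adult libraries were compared with newborn ones as the mean of the genotype means, in edgeR's quasi-likelihood fit of the 7 newborn and adult libraries with Benjamini-Hochberg adjustment over all genes. With age, 3 members rose and 6 fell, in a contrast in which 49.2% of all genes passed (25.3% higher and 24.0% lower). Myh4 rose by 3.55 ± 0.39 on the log2 scale (SE, adjusted p = 0.000383), Myh13 by 3.03 ± 0.46 (adjusted p = 0.00158) and Myh1 by 1.31 ± 0.37 (adjusted p = 0.0231). Myh8 fell by 5.80 ± 0.56 (adjusted p = 0.000219) and Myog fell by 4.28 ± 0.27 (adjusted p = 3.97e-05). Myod1 (log2 fold change -2.92 ± 0.56), Myh7 (-2.12 ± 0.53), Myh3 (-1.77 ± 0.46) and Myf6 (-1.15 ± 0.39) fell with adjusted p of 0.00427 to 0.0434 by the same edgeR test. These values average the genotypes. For all 10 members the log2 change with age was lower in labelled knockouts than in wild types, though that difference passed for none in edgeR. Myh1 had 5.32 and 5.16 against 20.2 RPKM in newborn and adult wild types, and 13.0 and 11.8 against 31.6 and 9.23 in labelled knockouts. Myh7 had 1.28 and 1.12 against 0.584 in wild types, and 3.10 and 4.92 against 0.749 and 0.138 in labelled knockouts. Myh3 and Myf6 also fell less in wild types. Newborn and adult wild types had 10.2 and 12.1 against 6.94 RPKM of Myh3, and 3.28 and 5.38 against 3.64 of Myf6. Labelled knockouts had 37.4 and 67.3 against 11.5 and 3.35 of Myh3, and 7.96 and 11.5 against 3.49 and 1.30 of Myf6. Myh2 did not pass (-0.38 ± 0.42, edgeR adjusted p = 0.485). Its value averages a higher adult level in wild types and lower adult levels in labelled knockouts. Without newborn wild type replicate 1 or replicate 2, which leaves 1 library in that group, the calls of Myh1, Myh3, Myh7 and Myf6 were lost. Fewer of all genes passed there as well. The log2 changes kept their direction, at 1.36 and 1.34 for Myh1, -1.80 and -1.67 for Myh3, -2.04 and -2.13 for Myh7 and -1.27 and -0.92 for Myf6. Myh4, Myh13, Myh8, Myog and Myod1 passed with every library that could be left out. Without adult labelled knockout replicate 1, which leaves 1 library in each adult group, the log2 change of Myh2 was -1.02.

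The counts of other muscle genes in the same fit stand beside 25.3% of all genes higher and 24.0% lower. A list of 10 fetal genes held forms of muscle proteins and also growth and imprinted genes that are not particular to muscle. Of these 10, 8 fell and none rose. Among them were Dlk1, an imprinted Notch-family ligand (-8.14 ± 0.41), and the fetal growth factor Igf2 (-5.09 ± 0.38). The embryonic light chain Myl4 (-4.17 ± 0.33) and cardiac-type troponin T Tnnt2 (-3.31 ± 0.22) fell too. The median log2 change of the 10 was -3.74, beside -0.04 over all genes tested. Of 26 myogenic regulators and precursor genes, 13 fell and 4 rose. Those with the smallest p were Tmem8c (myomaker, the fusion protein of myoblasts, -4.94 ± 0.33), the cadherin Cdh15 (-2.63 ± 0.30), the inhibitor of myogenic factors Id3 (-1.02 ± 0.13) and the satellite cell factor Pax7 (-4.51 ± 0.60). Of 18 mature fast muscle genes, 5 rose and 1 fell, near the share of all genes for those higher and below it in all calls, with the calcium buffer Pvalb at 3.27 ± 0.38, fast myosin-binding protein C Mybpc2 at 2.71 ± 0.41, the calcium pump Atp2a1 at 2.00 ± 0.46 and the calcium channel Cacna1s at 1.96 ± 0.32. Of 10 slow muscle genes, 6 fell, such as Tpm3 (-2.64 ± 0.19), Casq2 (-3.78 ± 0.32) and Tnnc1 (-2.87 ± 0.34), and 1 rose, the oxygen store Mb (3.60 ± 0.38). Of the 6 striated light chains 4 fell, Myl4, Myl1 (-1.26 ± 0.31), Myl3 (-2.02 ± 0.52) and Myl2 (-2.28 ± 0.64). Of 7 other heavy chains, 6 were in the tables. Myh10, a nonmuscle chain, fell (-1.07 ± 0.17), as did cardiac Myh6 (-3.30 ± 0.54), and nonmuscle Myh14 rose (0.86 ± 0.16).

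Markers of other tissues moved with age as well. Rod markers summed to 8249 to 15958 RPKM in adults, against 12.4 to 224 in newborn libraries and 7.64 to 201 at day 3, and 5 of 5 rose in adults against newborns and against day 3. Cornea markers summed to 425 to 6178 in adults, 38.2 to 70.7 in newborns and 36.9 to 97.4 at day 3, and 2 of 3 rose in both comparisons. Epidermis markers overlapped, at 2289 to 3914 in adults, 255 to 3713 in newborns and 286 to 6628 at day 3, and of their 7 genes 3 rose and 1 fell in adults against newborns. Their part in the age differences of the members was not tested.

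In newborn eyes the labelled knockouts had more RNA of the chains Myh3, Myh8, Myh4, Myh2 and Myh13 and of Myog than the wild types. By edgeR's quasi-likelihood test, 6 of the 10 members rose and none fell, where 24.0% of all genes passed, 14.6% higher and 9.38% lower. Myog rose by 1.59 ± 0.26 on the log2 scale (adjusted p = 0.00638), Myh3 by 2.22 ± 0.56 (adjusted p = 0.0281) and Myh8 by 2.04 ± 0.51 (adjusted p = 0.0284). Myh4 (1.93 ± 0.50), Myh13 (2.19 ± 0.63) and Myh2 (1.90 ± 0.55) rose with edgeR adjusted p of 0.0315, 0.0441 and 0.0443. Myh7 (1.73 ± 0.60), Myh1 (1.23 ± 0.49), Myf6 (1.15 ± 0.47) and Myod1 (1.34 ± 0.59) did not pass, with edgeR adjusted p of 0.08, 0.115, 0.123 and 0.147. Both labelled knockouts lay above both wild types for 10 of 10 members, which held for 37.9% of all 14986 genes with a mean of at least 1 CPM. The median over the members was 1.81, beside -0.07 over all genes tested.

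These newborn calls rested on few libraries. With any single newborn library left out, fewer members passed, and fewer of all genes did. Labelled knockout replicate 1, the library with little lens RNA, was among these. More members and more of all genes passed when either adult labelled knockout was left out of the shared fit. Without the adult wild type 4 members passed, where 2534 of 16345 genes were called higher and 1968 lower. A joint fit with the day 3 mice left Myog as the only call, where 1138 of 17980 genes were called higher and 514 lower. With size factors in place of TMM, Myh2 and Myh13 did not pass (edgeR adjusted p = 0.0510 and 0.0527), which left 4. The log2 fold changes themselves stayed positive in every setting, from 1.33 to 1.98 for Myog and from 1.95 to 2.18 for Myh8. Scaled to the authors' library totals, the median over genes was 0.09 in place of -0.07, and 2746 genes were called higher and 1084 lower in place of 2576 and 1650.

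The rise of the newborn labelled knockouts was seen in the summed RNA of the heavy chains and, to a smaller degree, in their composition. The 7 chains summed to 57.7 and 62.9 RPKM in wild types and 214 and 272 in labelled knockouts. The 12 fibre markers rose less, from 1840 and 2275 to 3843 and 4592. Set against the summed RPKM of the 12 fibre markers, the chains came to 3.13% and 2.77% in wild types and 5.56% and 5.93% in labelled knockouts, so that the groups did not overlap. Myog came to 0.382% and 0.488% of the fibre markers in wild types and 0.642% and 0.664% in labelled knockouts, while Myf6 overlapped, at 0.178% and 0.236% against 0.207% and 0.249%. Set against the heavy chain sum, Myog had the opposite order, at 12.2% and 17.6% in wild types and 11.6% and 11.2% in labelled knockouts. The log2 ratio of developmental to adult fast chains was 1.69 and 1.84 in wild types and 2.05 and 2.28 in labelled knockouts. With 2 libraries a group these compositions are a description without a test.

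Beside 14.6% of all genes higher and 9.38% lower, 3 of the 12 fibre markers rose and none fell in newborn labelled knockouts, the calcium channel Cacna1s (1.66 ± 0.42), the calcium release channel Ryr1 (1.86 ± 0.52) and nebulin Neb (1.68 ± 0.47), with a median of 1.23 over the list. Of the list of fetal genes, not all particular to muscle, 5 rose and 1 fell. Dlk1 (2.46 ± 0.33), Igf2 (1.90 ± 0.36), the imprinted Peg3 (1.40 ± 0.20) and Tnnt2 (1.24 ± 0.22) rose with the smallest p. Of the 26 myogenic regulators and precursor genes 9 rose, led by the E protein Tcf3 (1.55 ± 0.21), Eya2 (1.51 ± 0.22) and Mef2c (1.45 ± 0.23). Of the other heavy chains, the nonmuscle Myh9 (2.15 ± 0.27) and smooth muscle Myh11 (2.17 ± 0.47) rose, and 1 light chain did, Myl4 (1.12 ± 0.32). Among slow genes 2 rose, Mybpc1 (1.64 ± 0.43) and Tnnt1 (1.35 ± 0.37), and among mature fast genes 3, Cacna1s, Ryr1 and Tpm1 (1.29 ± 0.24), so that the counts of slow genes (2 of 10), fast genes (3 of 18) and light chains (1 of 6) lay near the share of all genes. The lists were chosen with earlier results of these data known, and their counts are descriptions.

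Markers of other tissues moved with the genotype label in newborn eyes. Smooth muscle and pericyte markers summed to 214 and 296 RPKM in wild types and 737 and 1103 in labelled knockouts, and 7 of the 8 rose. This list includes desmin Des, which was among the 3 genes nearest to Myh2 across libraries (r of 0.945), so it is not apart from skeletal muscle. Epidermis markers summed to 255 and 608 against 3387 and 3713, neutrophil and macrophage markers to 4.98 and 6.92 against 83.7 and 131, and rod markers to 186 and 224 against 12.4 and 46.4. Their part in the differences of the muscle genes was not tested.

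In adult eyes no member passed between 2 labelled knockouts and 1 wild type, whose spread was assumed to be that of the other groups. In this contrast 0.0% of 17592 genes passed by edgeR, with 506 at an unadjusted p under 0.05, and DESeq2 called 98 genes higher and 9 lower. No member had an unadjusted p under 0.05 or was called by DESeq2. Log2 fold changes ran from -0.88 ± 0.57 (Myh4) to 0.23 ± 0.64 (Myh8), with edgeR adjusted p of 1 throughout. The wild type value lay between the 2 labelled knockouts for 7 of 10 members. Without labelled knockout replicate 1, the log2 fold changes of Myh1 (-1.10), Myh2 (-1.17), Myh3 (-1.02), Myh8 (-0.94) and Myod1 (-1.58) turned negative. Without labelled knockout replicate 2, those of Myh7 (0.38) and Myh13 (0.42) turned positive.

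The genotype difference was lower in adults than in newborns for all 10 members, by 1.15 (Myod1) to 2.81 (Myh4) on the log2 scale, and passed for none of them in edgeR's test of the difference itself. The smallest adjusted p was 0.09 (Myh4, log2 difference -2.81 ± 0.75), where 2.8% of all genes passed. By the same edgeR test 4 members had an unadjusted p under 0.05, beside 3638 of 17592 genes. DESeq2 called 1 member, Myh4, where it called 918 genes higher and 1213 lower of 15545. This contrast turned on the adult labelled knockouts. Without replicate 1 the log2 difference was -3.89 for Myh4 and -3.76 for Myh13, and without replicate 2 it was -2.21 and -1.79. Each of these fits leaves 1 library per adult group. More members and more of all genes passed in both, so the added calls are not a trait of the members alone. On the authors' totals the calls over all genes went from 175 higher and 317 lower to 94 and 340.

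**Figure D3:**
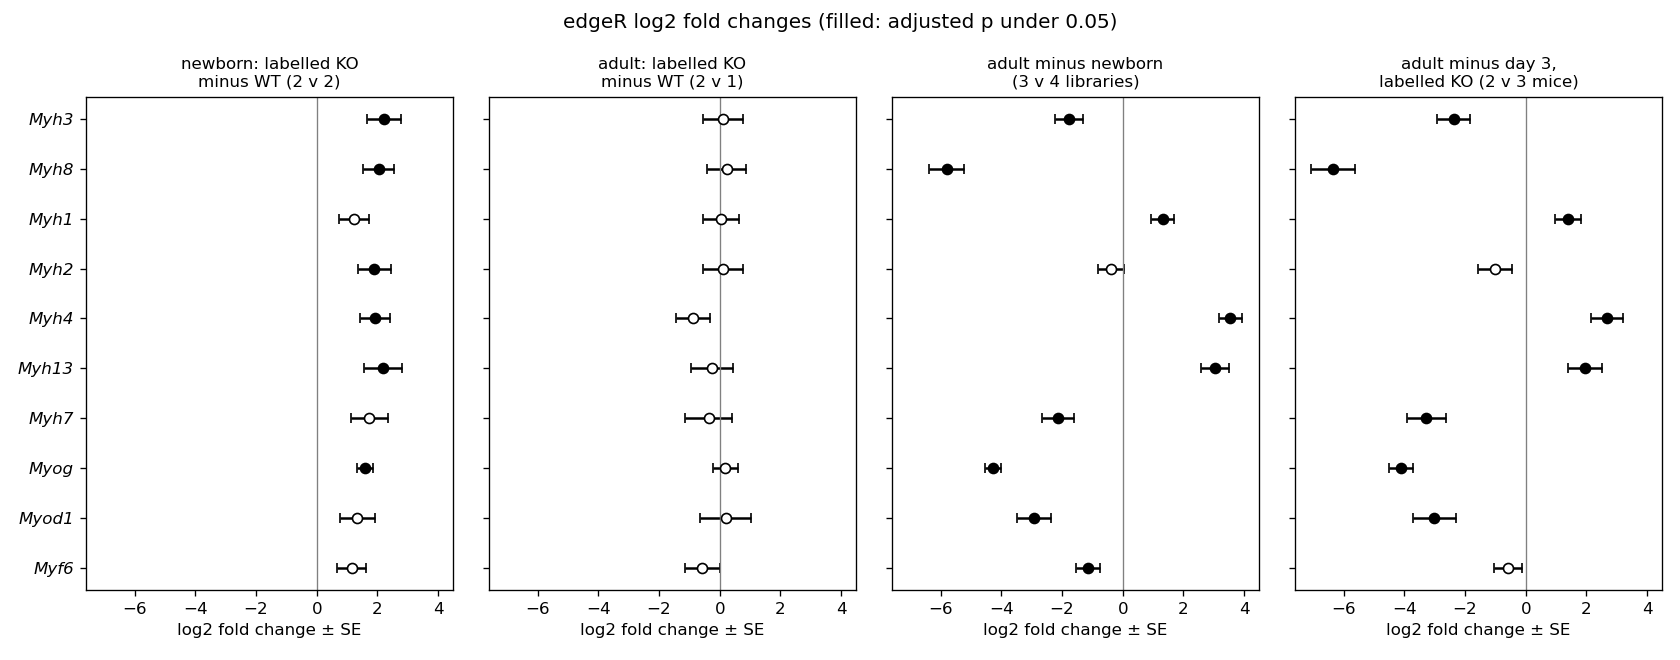
Log2 fold change with SE (horizontal axis) of the 10 genes (vertical axis) in 4 comparisons, by edgeR; filled points have an adjusted p under 0.05. In all, 6 genes are filled to the right in the newborn comparison and none in the adult one, and Myh4, Myh13 and Myh1 lie to the right and Myh8 and Myog farthest to the left in the comparisons of age.

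At day 3, eyes with open lids had higher values of every member than the closed eye of the same mouse, but no member passed the test. In E24, Myog was at 14.1 RPKM in the open and 4.11 in the closed eye, and in E29 at 21.9 and 13.2. Myh8 was at 67.3 against 43.7 in E24 and at 146 against 109 in E29, and Myh4 at 5.17 against 2.84 and 13.6 against 8.29. The open eye was above the closed one in both mice for 10 of 10 members, a pattern shown by 28.5% of 14986 genes, with a median ratio of 1.55 in E24 and 1.48 in E29.

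With the mouse as a block, log2 differences ran from 0.43 ± 0.67 (Myf6) to 1.26 ± 0.40 (Myog), and Myh7 was at 0.73 ± 0.18. Their edgeR adjusted p were 0.243 for Myh7, 0.474 for Myog and 0.830 to 0.999 for the others, in a contrast in which 0.514% of genes passed. At an unadjusted p under 0.05 by edgeR stood 2 members, Myh7 and Myog, beside 985 of 15754 genes. Of the members DESeq2 called Myh7 alone, where it called 346 genes higher and 23 lower of 14837. Of the heavy chain RNA, Myh3 and Myh8 together made up 78.0% in the open and 77.5% in the closed eye of E24, and 77.9% and 81.2% in E29. Myog relative to Myod1, as a ratio of RPKM, was 2.65 in the open and 1.92 in the closed eye of E24, and 1.94 and 1.46 in E29.

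The 2 eyes of E28, equal in lid state, differed more than the open from the closed eye of E24 or E29 for 8 of the 10 members. Both were closed, and the OS eye was above its OD eye for 9 of 10 members, with a median ratio of 2.68 and a highest ratio of 4.71 (Myf6), while 47.3% of all genes were higher in OS. Its ratio was larger than those of E24 and E29 for every member except Myog, which differed 3.42-fold in E24 and 2.04-fold in E28, and Myh7, at 2.91 RPKM in OS and 3.25 in OD of E28. In E32, with both lids open, the median ratio of OD to OS was 1.05 and the ratios ran from 0.677 (Myod1) to 1.33 (Myh13). Fibre markers moved with the members, summing to 2862 (E24) and 4807 (E29) RPKM in the open and 1805 and 3280 in the closed eyes, and to 2368 in OS and 1103 in OD of E28. Epidermis markers summed to 1661 (E24) and 2934 (E29) in the open and 286 and 409 in the closed eyes, and to 572 and 438 in OS and OD of E28. Their part in the differences of the members was not tested.

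**Figure D4:**
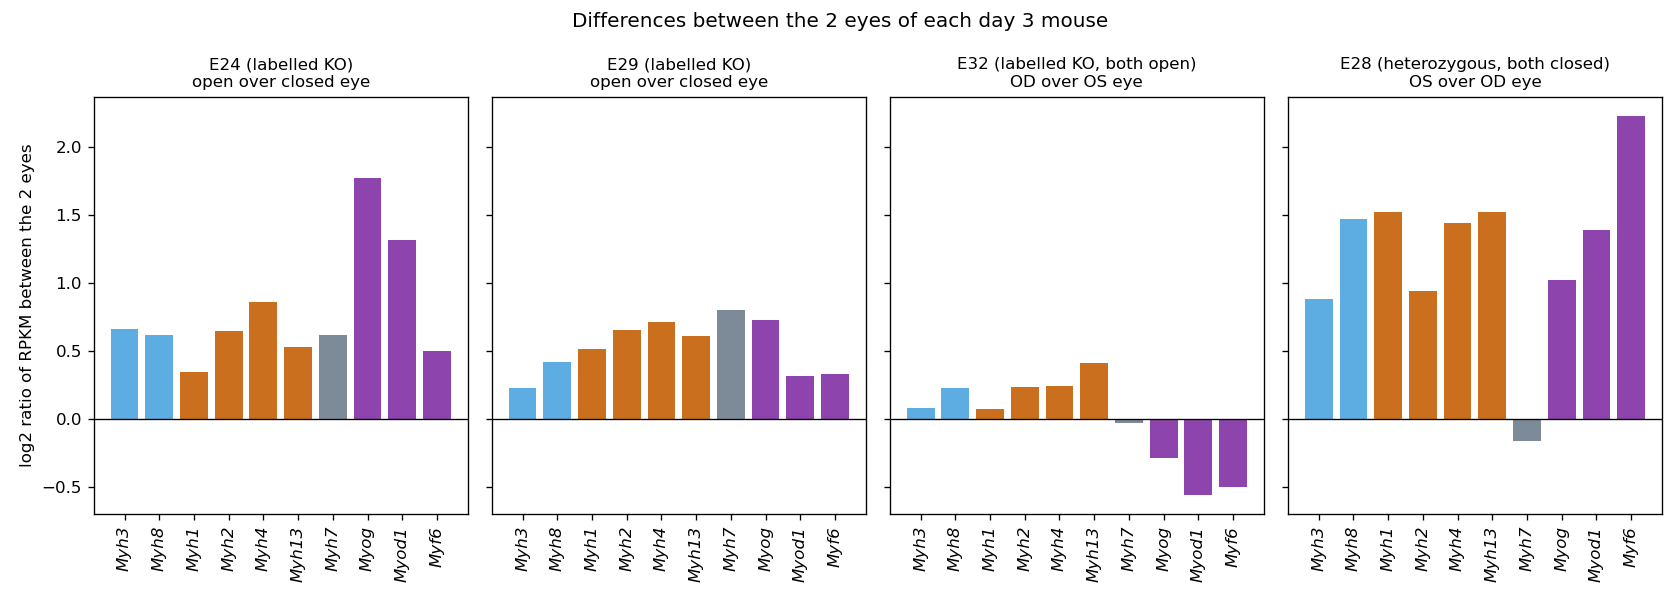
Log2 ratio of RPKM between the 2 eyes of each of the 4 day 3 mice (vertical axis) for the 10 genes (horizontal axis), colored by developmental chains, adult fast and extraocular chains, slow chain and factors. All 10 bars are above 0 in E24 and E29 (open over closed), and 9 of 10 are above 0 in E28, whose eyes were both closed.

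Against the heterozygous mouse, the 3 labelled-knockout mice of day 3, with the reads of both eyes summed, had log2 differences of 0.50 ± 0.41 (Myh7) to 1.47 ± 0.52 (Myog). No member passed (edgeR adjusted p of 0.999 throughout), and 0.0% of 16453 genes did, with 273 at an unadjusted p under 0.05, while DESeq2 called 88 genes higher and 5 lower. At an unadjusted p under 0.05 stood 2 members, Myog and Myh1 (1.15 ± 0.34), and DESeq2 called none. For no member did all 6 labelled-knockout eyes lie above both eyes of E28, a pattern that 3.22% of genes showed. A single heterozygous mouse stands for its group here, its eyes differed as described, and all 4 open eyes were labelled knockouts. Genotype and lid state can thus be told apart only among closed eyes, where Myog was at 4.11 and 13.2 RPKM in labelled knockouts and 3.84 and 7.81 in the heterozygote, and Myh8 at 43.7 and 109 against 25.9 and 71.9.

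From newborn to day 3, among labelled knockouts, no member passed, while 17.8% of all genes did by edgeR. Log2 differences were negative for 9 of 10 members, from -1.44 ± 0.44 (Myf6, adjusted p = 0.055) and -0.86 ± 0.31 (Myog, adjusted p = 0.0841) to -0.14 ± 0.57 (Myh13), and 0.10 ± 0.55 for Myh7. Myf6 and Myog had an unadjusted p under 0.05 by edgeR, beside 6650 of 17980 genes. DESeq2 called both, where it called 3041 genes higher and 1914 lower of 17230. Both passed in edgeR without mouse E32, where 2700 genes were called higher and 3449 lower of 17802. In the edgeR fit with all mice, the calls over all genes were 2003 higher and 1204 lower. On the authors' totals they were 807 and 1624, with the median of all genes moving from -0.08 to -0.29. The reads of day 3 libraries came to 111.2% to 112.4% of the authors' totals and those of the newborn and adult libraries to 75.6% to 105.2%, and a difference of age between these sets cannot be told apart from a difference in their preparation.

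From day 3 to adult, among labelled knockouts, 3 members rose and 5 fell, where 50.1% of all genes passed (24.4% higher and 25.7% lower). Myh4 rose by 2.67 ± 0.52 (edgeR adjusted p = 0.00364), Myh13 by 1.95 ± 0.56 (adjusted p = 0.0202) and Myh1 by 1.39 ± 0.42 (adjusted p = 0.0248). Myh8 fell by 6.35 ± 0.71 (edgeR adjusted p = 0.000283) and Myog fell by 4.12 ± 0.40 (adjusted p = 0.00015). Myh7 (-3.27 ± 0.65), Myod1 (-3.02 ± 0.71) and Myh3 (-2.38 ± 0.56) fell with edgeR adjusted p of 0.0038 to 0.00854. Myh2 (-1.02 ± 0.56) and Myf6 (-0.58 ± 0.46) did not pass. This comparison shares the adult labelled knockouts with that of adults against newborns. Without adult labelled knockout replicate 1, Myh1 (0.25) and Myh13 (0.63) did not pass and Myh2 fell (-2.32, edgeR adjusted p = 0.0127). Without mouse E24, Myh1 did not pass (1.25, edgeR adjusted p = 0.064). On the authors' totals the median over genes was 0.32 in place of 0.07, with 5365 genes called higher and 3240 lower in place of 4385 and 4625.

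Across the 15 libraries, the profiles of the 10 genes formed sets that could be read from Pearson's r of log2(CPM + 1), given as a description over libraries that share mice and ages. Myh4 had an r of 0.968 with Myh13 and 0.918 with Myh1. Myh8 had 0.946 with Myog, 0.940 with Myod1, 0.917 with Myh7 and 0.909 with Myh3, and -0.58 with Myh4. Myh2 stood nearer to the set of Myh8, with 0.887 to Myh3, 0.772 to Myod1 and 0.658 to Myh8. Its r was 0.358 with Myh1, 0.350 with Myh13 and 0.197 with Myh4. Myf6 had no r above 0.654 (Myod1) with another member.

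The 3 genes nearest to each member were searched over 14986 genes. Myh8 was nearest to slow troponin I Tnni1 (0.990), Dlk1 (0.988) and the imprinted RNA H19 (0.985), and Myh3 to Dusp27 (0.979), Kbtbd5 (0.975) and Vgll2 (0.973). Myh4 was nearest to the muscle sodium channel Scn4a (0.981), Cmya5 (0.968) and Cacna1s (0.968), and Myh13 to Cacna1s (0.973), Myh4 itself and Atp2a1 (0.960). Myog was nearest to Tmem8c (0.981), Rtl1 (0.979) and Capn6 (0.975), and Myod1 to Vgll2 (0.958), Dusp27 (0.956) and Tmem8c (0.956). Myf6 was nearest to the light chain Myl1 (0.958), Lmod3 (0.952) and Itgb1bp2 (0.951). Myh1 was nearest to Neb (0.948), Cmya5 (0.946) and Cd36 (0.945), and Myh2 to Asb2 (0.947), desmin Des (0.945) and Unc45b (0.944). Myh7 differed in having F2r (0.963), Tjap1 (0.959) and Pcsk5 (0.954) nearest, none of which is on the lists of muscle genes. The 8 eyes come from 4 mice, so the points are not independent.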

How the data were processed

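Poly(A)+ RNA of mouse eyes with eyelids was sequenced on an Illumina HiSeq, per the labels' protocols, which describe fixation in one field and storage in RNAlater in another. The submitters' processing notes list, with no roles, TopHat2 2.0.11, Bowtie 0.12.9, SAMtools, CASAVA 1.8 and mm8 as genome build. The aligner's settings, the counting tool and the annotation release are not given in the sources used here. The deposited tables of the 15 libraries hold the authors' raw read counts for 24373 transcripts and the authors' RPKM values, which rest on their own library totals. Those totals were recovered from counts, lengths and RPKM.

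Each symbol was represented by its transcript with the highest mean count. Tests were edgeR's quasi-likelihood tests (edgeR 4.0.16 under R 4.3.3) after filterByExpr and TMM scaling, and a gene passed at an adjusted p (Benjamini-Hochberg, over all genes) under 0.05. The SE of a log2 fold change is its size over the square root of F. Newborn and adult libraries shared a fit of 7 libraries, the fit of day 3 eyes had a term for each mouse, and for genotype and age the eyes of a day 3 mouse were summed. The edgeR fit was also run on simulated data with far fewer changed genes than the newborn contrast called, so that run does not cover the setting of these data. Levels in the text are RPKM recomputed on TMM totals over the 15 libraries.

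The members, lists and tests were chosen with earlier results of these data known. Named were all 10 members, up to 4 passing genes of a list with the smallest p, and the 3 genes with the highest correlation to each member among those with a mean of at least 1 CPM. A gene that the rule names is not reported here. Stretches shared between paralogs were counted in GENCODE transcripts. Alternatives were size factors, the authors' totals, no filter, all transcripts, DESeq2 1.42.0, other sets of libraries and each library or mouse left out. The fit without the block over 6 libraries was added after seeing the data. Replicate numbers were not used as pairs, since the labels tie them to no shared source.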

Additional observations from a re-analysis of the deposited data

Results flagged for a closer look

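The level of Myh7, the slow heavy chain, was 7.38 RPKM in the open eye of mouse E29 (OS), apart from the other open eyes of day 3, which stood at 3.52 and 3.60 (both of E32) and 4.07 (E24). Its gap to the nearest of these was 0.856 of the whole range, over Dixon's critical value of 0.829 for 4 samples. Of 13 measures examined in this group it was the only value to pass, and chance alone would pass about 1 in 20. Because 2 of the 4 eyes came from E32, they are not independent. The closed eye of E29 had 4.22 RPKM of Myh7.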

How the results depend on the processing

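Of 420 log2 fold changes of single members with 1 library or mouse left out, 350 kept direction and side of the threshold, and of 520 under other settings 494 did. For newborn genotype, 6 members passed. Size factors gave 4 (without Myh2 and Myh13), the authors' totals 7 (with Myh7) and DESeq2 8 (with Myh1 and Myh7). A joint fit with the day 3 mice left 1, and leaving out single libraries gave 0 to 10. The replicate block, a fit with the replicate number as a block over the 6 numbered libraries, left 3, beside 4 without the block on the same libraries. Deviations of same-numbered libraries correlated at 0.0505, 0.105 and 0.167 over 16342 genes, so the numbers were not taken as pairs. For adults against newborns, 9 passed, and 5 to 10 with a library left out. For genotype by age, 0 passed, 1 with DESeq2, and 0 to 9 with a library left out. For open against closed lids, 0 passed, and 1 with DESeq2. For day 3 against newborn, 0 passed, 1 with size factors, the authors' totals or open eyes only, 2 with DESeq2 or closed eyes only, and 0 to 2 with a unit left out. Without 1 unit, Myh2 ran from -0.63 to 0.054, Myh7 from -0.31 to 0.30 and Myh13 from -0.50 to 0.16. There, Myh7 turned negative on the authors' totals (-0.13), with closed eyes only (-0.36), without E29 (-0.31) and without newborn labelled knockout replicate 1 (-0.20). Without E24, Myh2 (0.054) and Myh13 (0.16) turned positive, and without newborn labelled knockout replicate 2 Myh13 did (0.04). For adults against day 3, 8 passed, and 7 to 8 with a unit left out. Among adults the genotype difference ran, without replicate 1 and without replicate 2 of the labelled knockouts, from -1.10 to 0.67 for Myh1, -1.17 to 0.79 for Myh2, -1.02 to 0.75 for Myh3, -2.04 to 0.38 for Myh7, -0.94 to 0.87 for Myh8, -1.57 to 0.42 for Myh13 and -1.58 to 0.96 for Myod1. The mean Myh8 share of newborn wild types was 56.6%, and 57.7% without Myh7 in the sum. The number of calls over all genes differed between these settings as well. The causes of these changes were not tested, beyond the fewer samples of a fit with a library left out. Contrasts that need the adult wild type were not run without it. Adult Myog, Myod1 and Myh7 rest on 10 to 103 reads a library, which limits folds among adults.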
